A study of Mus musculus with 24 samples.

Results

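H3K27ac peaks of male mice at day 6 after prednisone were compared with those of male mice given vehicle. H3K27ac, acetylation of lysine 27 on histone H3, was mapped by ChIP-Seq in quadriceps myofibers from C57BL/6 mice (C57BL/6J in the methods of the study) that were 10 weeks of age when dosing began. The day 6 group received weekly prednisone (1 mg/kg) by intraperitoneal injection and was harvested 6 days after the fifth dose, and the vehicle group received the carrier alone. All 8 groups of the series (male and female, vehicle and days 4, 6 and 8) had 2 H3K27ac libraries, from biological replicates, and 1 input library, but 1 peak list per group. The members were all autosomal peaks of both lists, 119181 of the 469078 peaks in the 8 lists, of which 87199 were from vehicle and 31982 from day 6. A day 6 peak was called gained when it overlapped no vehicle peak by 1 bp or more, a vehicle peak was called lost when it overlapped no day 6 peak, and the others were kept. These words describe presence in a list, since values per library were not used here and no test between the groups was possible. The myofibers were isolated by digestion with collagenase II and filtering.

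H3K27ac marks active promoters and enhancers, and enhancers are the more cell type specific of these elements. Prednisone acts through the glucocorticoid receptor, a ligand-activated transcription factor that binds DNA and recruits coactivators with histone acetyltransferase activity. In muscle its known targets include clock genes, Klf15, and the ubiquitin ligases of the atrophy program.

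The lists were not matched in depth or background. The tag steps in the files gave about 31.6 M H3K27ac tags for vehicle and 50.5 M for day 6, and 26.2 M and 20.1 M input tags. Despite its greater depth, the day 6 list held 5.39% of its H3K27ac tags in peaks, against 18.5% for vehicle, and the single largest peak, a pileup on chromosome 2 (chr2:98665905-98667698 at day 6), held 23.6% of the day 6 peak tags and 4.28% of the vehicle peak tags. The lowest findPeaks score, the value given by the peak caller, was 25 at day 6 and 9 in vehicle. Equal scores need not mean equal signal in the 2 lists. The median G and C content of the peaks (GC) was 44.5% at day 6 and 50.1% in vehicle, and ranged from 42.9% to 53.0% over the 8 lists. The part of depth, background and base composition in the results was not tested.

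Regions of each kind are printed because gained and lost peaks differed in base composition. The first 5 are the 250 bases before the start of a muscle or metabolic gene (RefSeq promoters, GRCm38, 5′ to 3′ on the strand of the gene), and the others are the 250 bases at the center of an intron peak at least 4-fold over input, on the plus strand. Of such peaks, the Mbnl1 peak had the most tags among gained ones, and the Slc25a34 peak followed one in Bin1 among lost ones. CG dinucleotides are in capitals.
Ttn, gained at day 6, chr2:76982548-76982797, minus strand: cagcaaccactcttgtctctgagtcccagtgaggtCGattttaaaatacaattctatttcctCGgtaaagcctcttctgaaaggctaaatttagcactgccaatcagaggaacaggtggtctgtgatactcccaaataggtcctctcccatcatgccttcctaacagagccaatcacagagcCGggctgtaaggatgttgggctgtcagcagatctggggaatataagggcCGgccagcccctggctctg
Cd36, gained at day 6, chr5:17835897-17836146, minus strand: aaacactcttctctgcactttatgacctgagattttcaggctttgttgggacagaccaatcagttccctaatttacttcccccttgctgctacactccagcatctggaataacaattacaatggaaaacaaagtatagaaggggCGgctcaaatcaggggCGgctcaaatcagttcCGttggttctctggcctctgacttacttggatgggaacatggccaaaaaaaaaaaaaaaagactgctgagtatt
Ckm, kept, chr7:19410844-19411093, plus strand: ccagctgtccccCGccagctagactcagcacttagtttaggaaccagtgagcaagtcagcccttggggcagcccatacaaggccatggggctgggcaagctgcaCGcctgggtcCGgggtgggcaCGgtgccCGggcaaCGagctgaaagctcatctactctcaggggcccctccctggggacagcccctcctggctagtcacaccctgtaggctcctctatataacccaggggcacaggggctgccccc
Arntl, lost, chr7:113207215-113207464, plus strand: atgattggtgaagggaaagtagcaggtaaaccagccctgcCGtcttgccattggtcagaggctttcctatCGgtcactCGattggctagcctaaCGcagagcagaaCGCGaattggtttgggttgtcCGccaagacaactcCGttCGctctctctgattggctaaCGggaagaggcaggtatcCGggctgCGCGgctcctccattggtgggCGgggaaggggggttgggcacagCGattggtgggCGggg
Igf1r, lost, chr7:67952007-67952256, plus strand: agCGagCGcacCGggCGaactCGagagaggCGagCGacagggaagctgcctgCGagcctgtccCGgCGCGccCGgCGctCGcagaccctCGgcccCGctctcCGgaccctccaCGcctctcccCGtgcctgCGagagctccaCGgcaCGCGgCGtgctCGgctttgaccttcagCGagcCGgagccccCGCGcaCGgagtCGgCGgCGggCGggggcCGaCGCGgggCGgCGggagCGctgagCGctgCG
Mbnl1 intron, gained at day 6, chr3:60585113-60585362, plus strand: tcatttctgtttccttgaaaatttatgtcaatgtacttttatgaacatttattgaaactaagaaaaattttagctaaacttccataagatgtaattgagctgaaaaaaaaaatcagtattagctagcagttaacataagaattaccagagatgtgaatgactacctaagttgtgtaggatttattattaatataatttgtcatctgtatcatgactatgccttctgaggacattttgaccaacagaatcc
Slc25a34, nearest gene of a lost intron peak, chr4:141643566-141643815, plus strand: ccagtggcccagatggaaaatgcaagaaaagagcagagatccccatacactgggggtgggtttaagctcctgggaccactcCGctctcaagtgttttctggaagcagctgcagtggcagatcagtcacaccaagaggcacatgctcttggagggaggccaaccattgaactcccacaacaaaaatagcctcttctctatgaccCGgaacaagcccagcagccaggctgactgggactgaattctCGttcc
The gained stretches held 4 CG dinucleotides at Ttn, 3 at Cd36 and 0 at Mbnl1, with 50.0%, 43.2% and 28.8% GC. The lost stretches of Arntl and Igf1r held 16 and 42 CG dinucleotides, with 58.8% and 77.6% GC, and the lost Slc25a34 stretch held 3 with 53.6% GC. Ckm, kept, had 6 with 64.8% GC. These chosen stretches do not stand for all promoters. Over the 326 genes with a promoter peak at day 6 only and a sequence available, the median promoter GC was 59.0%. Over the 3737 such genes with one in vehicle only, the median lay between this value and the 61.7% of genes covered in both lists.

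Few peaks were common to both lists. At day 6, 20404 of 31982 peaks (63.8%, Wilson 95% interval 63.3 to 64.3%) were gained and 11578 were kept. In vehicle, 75804 of 87199 peaks (86.9%, 86.7 to 87.2%) were lost and 11395 were kept. These intervals, and all others given, cover counting error only. Counted in bases, 36.3% of the day 6 peak sequence lay in vehicle peaks and 14.5% of the vehicle peak sequence lay in day 6 peaks. Lost peaks covered 49.0 Mb and gained peaks 12.2 Mb. When both lists were cut to the 31982 peaks of highest findPeaks score, 24182 day 6 peaks (75.6%, 75.1 to 76.1%) had no vehicle partner and 24446 vehicle peaks (76.4%, 76.0 to 76.9%) had no day 6 partner. The 24182 included all 20404 gained peaks, since every day 6 peak entered the cut, and 3778 peaks whose vehicle partner lay below it. The vehicle cut fell inside the 12666 peaks tied at a score of 11, of which 11876 entered by normalized tag count. It left out some large vehicle peaks of lower score, such as those of Per1 (359.0 normalized tags, score 10) and Aldoa (330.5, score 10). A partner below the cut was therefore not always a peak with few tags.

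Overlap followed the findPeaks score, which did not rank peaks by their tags. In vehicle the Mef2d promoter peak had 746.7 normalized tags at a score of 11, and that of Mmadhc 36.1 at 37. Of the 6186 day 6 peaks at the lowest score of 25, 10.1% were kept, of the 5375 with scores of 30 to 34, 44.3%, and of the 3250 with scores of 45 to 99, 96.2%. Of the 15 day 6 peaks at 100 or more, 10 were kept. Vehicle peaks followed the same order, with 6.20% of 33536 peaks kept at a score of 9, 23.6% of 6882 at 13 to 14, and 78.0% of 1662 at 20 to 39. Nearly all of the top 1000 day 6 peaks by score had a partner in the whole vehicle list (97.5%), as did 76.9% of the top 10000. In the opposite direction, 86.1% of the top 1000 and 47.1% of the top 10000 vehicle peaks had a day 6 partner. The top 1000 of each list overlapped in 16.7% of the day 6 and 16.4% of the vehicle peaks, the top 5000 in 34.3% and 33.5%, and the top 10000 in 36.6% and 35.4%.

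**Figure D1:**
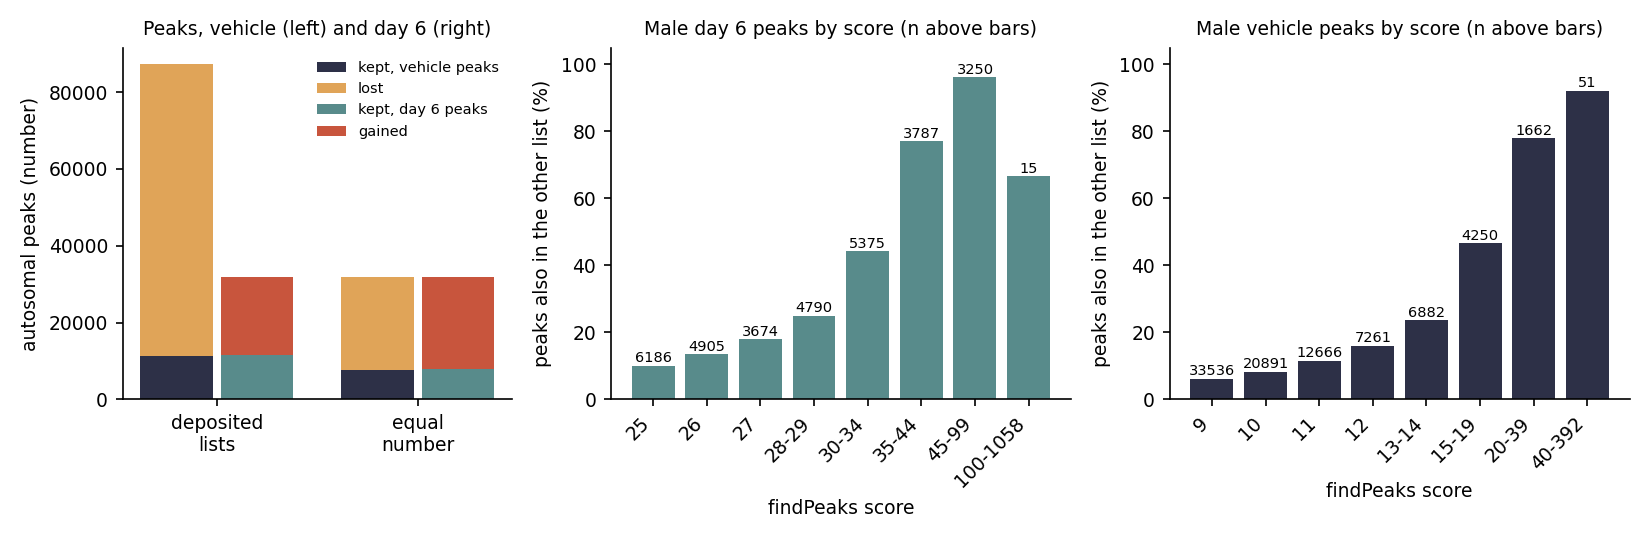
Left, the number of autosomal peaks in male vehicle and male day 6, kept or not, in the deposited lists and after both were cut to 31982 peaks. Middle and right, the percentage of peaks with a partner in the other list by findPeaks score, with the number of peaks above each bar. Kept shares are larger at higher scores, from 10.1% to 96.2% at day 6 before the 15 highest peaks, and from 6.20% to 92.2% in vehicle.

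Gained peaks were narrow and weak and had little input beneath them. The median width was 500 bp, the smallest the caller reports, for both gained and lost peaks, and 74.7% of gained and 68.0% of lost peaks had exactly this width. Kept peaks were wider, with medians of 884 bp at day 6 and 1194 bp in vehicle. The median normalized tag count, per 10 M tags, was 5.54 for gained and 14.6 for kept day 6 peaks, and 13.3 for lost and 35.1 for kept vehicle peaks. The fold over input ran the other way at day 6, with a median of 9.55 in gained and 4.24 in kept peaks. The median gained peak lay over 1 input tag and the median kept day 6 peak over 7, and 4057 gained peaks (19.9%) had no input tag, for which the files give 0.5. Lost peaks had a median fold of 4.37 over 8 input tags, and 109 of them (0.144%) had no input tag.

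Among 9826 peaks that met exactly 1 peak of the other list, 5483 (55.8%) were wider in vehicle, 3585 were wider at day 6 and 758 were of equal width. Spearman's rho between normalized tags per kb in the 2 lists over these pairs was 0.45, a description across sites that share libraries and base composition. Distances to the nearest peak of the other list were also measured. The nearest vehicle peak was within 1 kb of 3187 gained peaks (15.6%) and within 10 kb of 11018 (54.0%). The nearest day 6 peak was within 1 kb of 4104 lost peaks (5.41%) and within 10 kb of 24326 (32.1%), from a list with fewer peaks. No share for random sites was computed, so these values cannot show whether gained or lost peaks lay closer than other sites.

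Promoters made up a small share of gained and lost peaks and a large share of kept peaks. A peak counted as a promoter peak when its center lay up to 1 kb upstream or 100 bp downstream of a start, and other classes were likewise set by the center. Of gained peaks, 468 (2.29%, 2.097 to 2.51%) were at promoters, 522 (2.56%) in exons, 11034 (54.1%) in introns and 8135 (39.9%) in intergenic sequence. Of kept day 6 peaks, 3156 (27.3%, 26.5 to 28.1%) were at promoters, 48.4% in introns and 15.5% in intergenic sequence. Lost peaks resembled gained ones, with 2940 (3.88%, 3.74 to 4.02%) at promoters, 51.1% in introns and 35.8% in intergenic sequence, but 7.26% in exons. Transcription termination sites held 1.20% of gained and 2.00% of lost peaks. In a grid of 239565 windows of 500 bp across the autosomes, 1.26% were at promoters, 38.1% in introns and 57.0% in intergenic sequence. After the cut to equal number, promoters took 4.89% of gained, 6.24% of lost, 31.3% of kept day 6 and 30.5% of kept vehicle peaks.

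Distance to genes showed the same split. The median distance from the peak center to the nearest protein-coding start was 42.8 kb for gained, 24.7 kb for lost, 2.05 kb for kept day 6 and 2.07 kb for kept vehicle peaks. A start lay within 10 kb of 20.5% of gained, 29.1% of lost and 64.6% of kept day 6 peaks. With equal numbers the medians were 35.03 kb for gained, 19.5 kb for lost and 0.938 kb for kept day 6 peaks, and median widths were 500 bp for gained and lost and 942 bp for kept day 6 peaks.

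**Figure D2:**
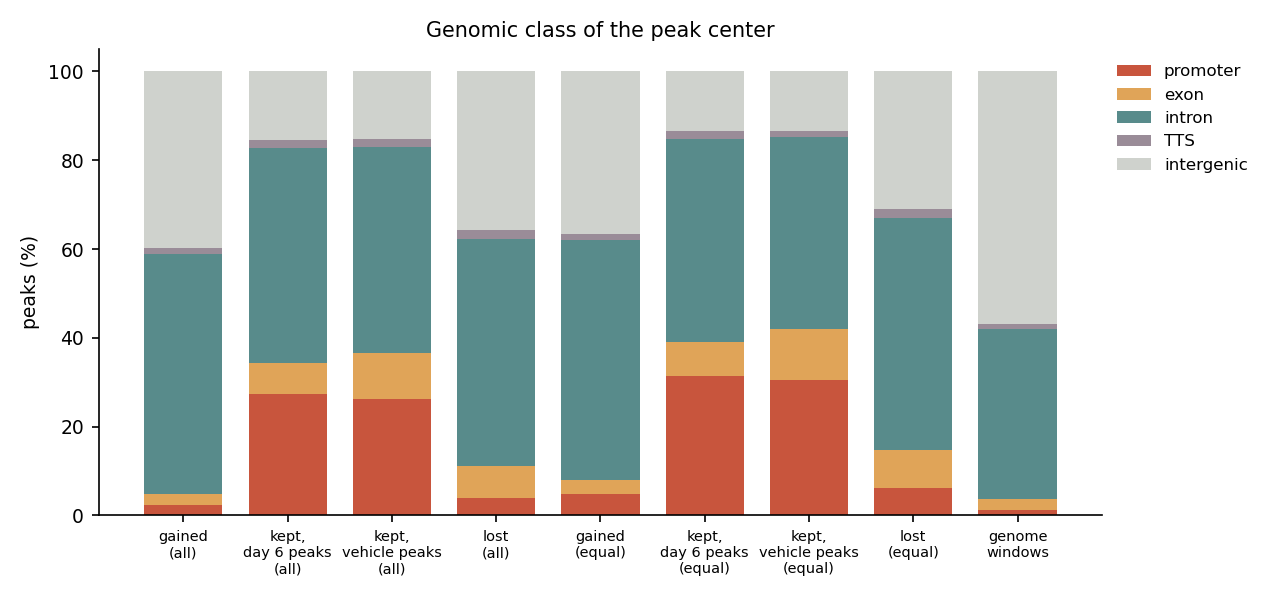
Percentage of peaks by genomic class of the center for gained, kept and lost peaks in the deposited lists (all) and in lists of equal number (equal), beside a grid of autosomal windows. TTS is the transcription termination site. Promoters take 2.29% of gained, 3.88% of lost and 27.3% of kept day 6 peaks, and 1.26% of the windows.

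Gained peaks had a lower GC than the other peak groups and lay near the grid windows. Their median GC was 42.4% (10th to 90th percentile, 37.3 to 47.5%), against 49.9% in kept day 6 peaks, 49.9% in lost peaks, 52.6% in kept vehicle peaks and 41.8% in the grid windows. CG dinucleotides numbered 6.91 per kb at the median of gained peaks, 13.04 in lost, 19.96 in kept day 6 and 24.0 in kept vehicle peaks, and 6 per kb in the grid. The share of day 6 peaks that were gained was lower at higher GC, from 95.5% of 5167 peaks at 35 to 40% GC through 54.98% of 8116 at 45 to 50% to 4.94% of 1720 at 55 to 60%. The share of vehicle peaks that were lost was 94.4% of 665 peaks at 35 to 40% GC, 90.5% of 34570 at 45 to 50% and 76.2% of 9998 at 55 to 60%. Peaks of 40 to 45% GC were 36.4% of the day 6 list and 8.25% of the vehicle list, and those of 35 to 40% were 16.2% and 0.763%. The gap held within a class: in introns the median GC was 42.5% for gained and 49.8% for lost peaks, and at promoters 44.7% and 55.8%. It also held at equal number, with 43.1% in gained and 50.9% in lost peaks. The median of repeat-masked bases was 12.5% in gained and 12.4% in lost peaks. Peaks that were mostly repeats were more common in the vehicle list. There 79982 of 87199 peaks had at most 50% repeats, against 31197 of 31982 at day 6. Whether this composition arose in the tissue or in the libraries cannot be told apart with 1 list per group.

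**Figure D3:**
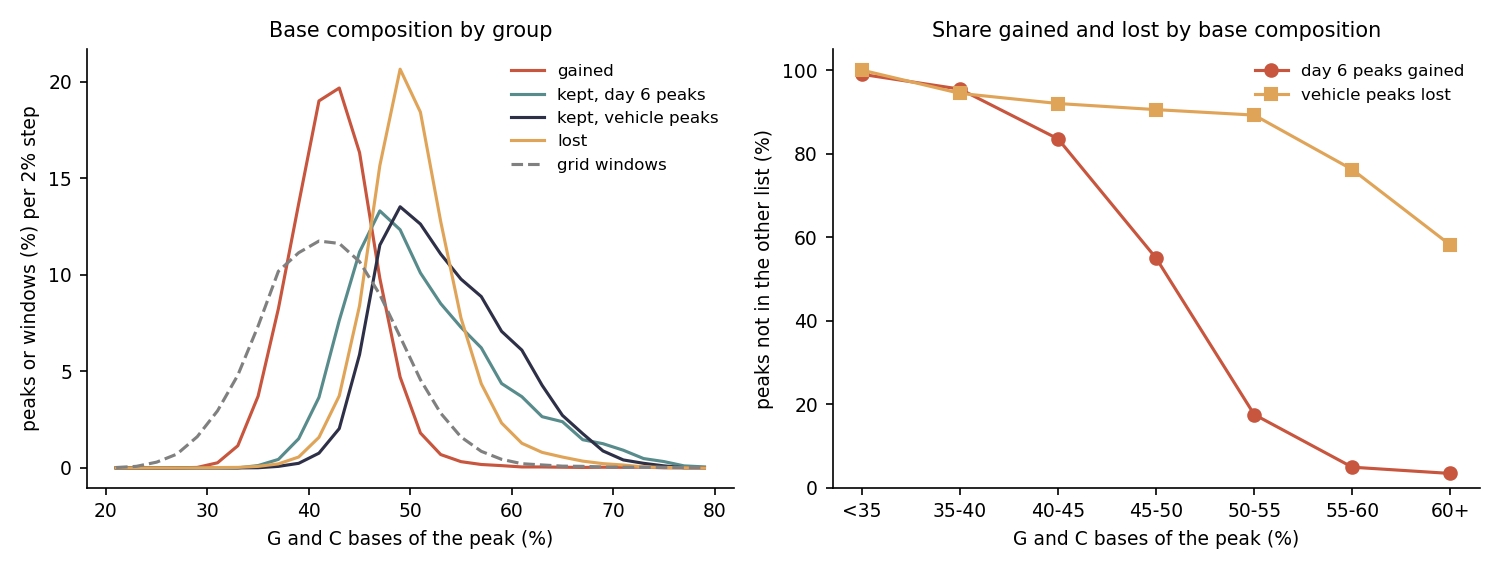
Left, the distribution of G and C content in gained, kept and lost peaks and in grid windows, per 2% step. Right, the percentage of day 6 peaks gained and of vehicle peaks lost by G and C content. Gained peaks center on 42.4% and lost peaks on 49.9%, and the gained share is 95.5% at 35 to 40% and 4.94% at 55 to 60%.

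Sequence motifs were counted in the 500 bp at each peak center, on both strands. The MEF2 consensus, bound by the myocyte enhancer factor 2 family that drives muscle genes, was in 1.93% of gained, 1.87% of kept day 6, 0.616% of lost and 1.57% of kept vehicle peaks, and in 1.09% of grid windows. Since the motif is AT-rich, it was counted again in peaks of 40 to 45% GC. This range was set on the whole peak, not on the 500 bp searched. There the motif was in 1.94% (1.69 to 2.24%) of 9725 gained and 3.65% (2.90 to 4.59%) of 1917 kept day 6 peaks. It was in 0.982% (0.771 to 1.25%) of 6619 lost and 2.61% (1.59 to 4.26%) of 575 kept vehicle peaks, and in 0.965% of windows. Over all peaks the E-box CAGCTG, the form used by myogenic factors, was in 21.3% of gained, 26.5% of kept day 6 and 30.8% of lost peaks, and at 40 to 45% GC in 20.9%, 22.6% and 21.02%, with 17.4% of windows both over all and in that range. The glucocorticoid receptor motif ACANNNTGT was in 18.4% of gained, 12.9% of kept day 6 and 14.3% of lost peaks and 16.1% of windows over all, and in 18.9%, 18.1%, 16.8% and 17.5% at 40 to 45% GC. In kept vehicle peaks it was lowest over all, at 11.4%, but highest at 40 to 45% GC, at 21.2% of 575. The interval there (18.1 to 24.7%) overlapped that of gained peaks (18.1 to 19.7%). The AP-1 type motif TGANTCA was in 17.3% of gained, 12.8% of kept day 6 and 13.7% of lost peaks and 14.5% of windows over all, and in 17.9%, 16.3%, 14.8% and 15.1% at 40 to 45% GC. In kept vehicle peaks it was likewise lowest over all, at 12.01%, and highest at 40 to 45% GC, at 18.3%. The interval there (15.3 to 21.6%) held that of gained peaks (17.1 to 18.6%). The letters of these motifs were matched exactly, and the motifs may overlap each other.

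Each of the other 6 lists held a larger share of the kept than of the gained peaks. Of gained peaks, 1.86% overlapped a male day 4 peak, 4.31% a male day 8 peak, 10.7% a female vehicle peak and 25.04% a female day 6 peak, and 12254 (60.1%) were in none of the other 6 lists. Of kept day 6 peaks, 45.9%, 58.9%, 59.1% and 95.8% were in those lists, and 247 (2.13%) were in none. Lost peaks stood at 4.47%, 4.68%, 4.67% and 44.9%, with 36738 (48.5%) in none. The male day 4 and day 8 lists were the shortest, with 17339 and 20355 autosomal peaks, and female day 6 was the longest, with 121551.

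Wider peaks were more often in another list, among gained and lost peaks alike. Of the 15249 gained peaks of 500 bp, 4620 (30.3%) were in at least 1 of the other 6 lists. The share was 92.6% of the 1007 wider than 1 kb and up to 2 kb, and 99.3% of the 150 wider than 2 kb. Among lost peaks it was 42.1% of the 51520 of 500 bp and 98.2% of the 956 wider than 2 kb. A wider peak also meets an overlap of 1 bp more easily, which was not adjusted for. The 150 wide gained peaks had a median GC of 41.4%. Of them, 78.7% were in female vehicle, 78.0% in female day 6, 94.0% in female day 8 and 43.3% in male day 8. The 956 lost peaks of this width had a median GC of 52.9%. In the same lists, in that order, they stood at 33.5%, 97.2%, 92.7% and 44.6%.

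**Figure D4:**
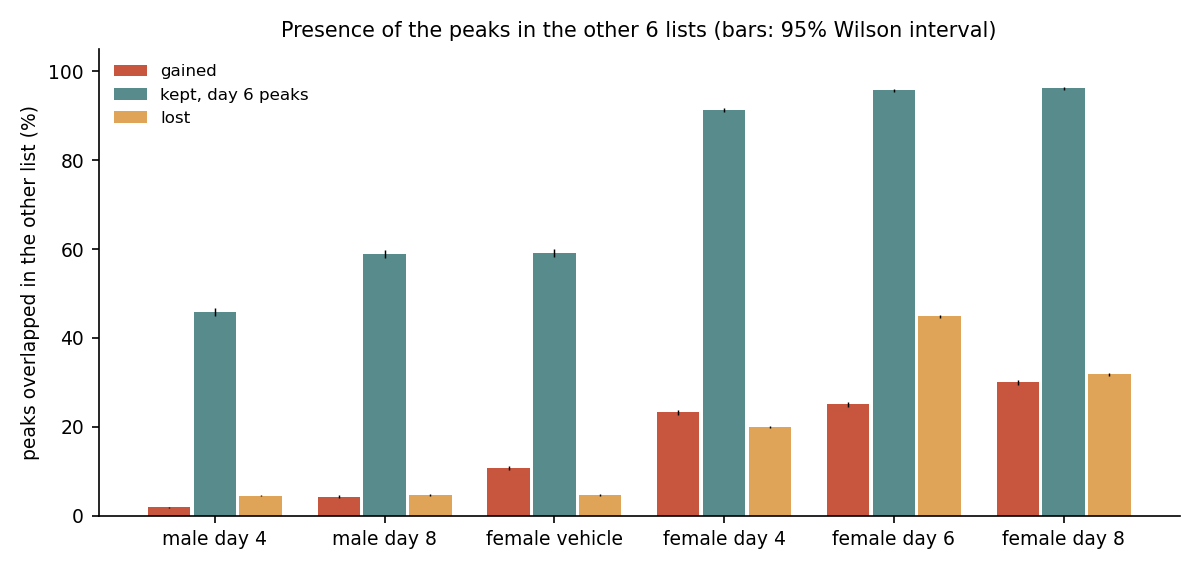
Percentage of gained, kept day 6 and lost peaks overlapped by a peak in each of the other 6 lists, with 95% Wilson intervals. Kept peaks reach 96.2% in female day 8, and gained peaks lie between 1.86% in male day 4 and 30% in female day 8.

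The gained peaks with the most tags included several at muscle genes. Among gained peaks at least 4-fold over input, a selection made after the values were seen, the first was a 7411 bp peak in an intron of Mbnl1 (chr3:60581533-60588944), which encodes a splicing regulator sequestered in myotonic dystrophy, with 87.0 normalized tags, 15.9-fold over input and 37.3% GC. A further 2 Mbnl1 intron peaks were among the first 10, with 55.8 and 48.5 normalized tags, and all 3 overlapped a peak in each of the other 6 lists. A 4374 bp peak at a promoter of Asb5 (chr8:54569011-54573385), which encodes an ankyrin repeat protein of muscle, had 57.2 normalized tags and was 14.4-fold over input. A 5133 bp peak at the start of Trdn (chr10:33081571-33086704), which encodes triadin of the calcium release complex, had 57.0 normalized tags and was 8.81-fold over input. Both were in 5 of the other 6 lists. The rest of the 10 lay nearest Arhgap20, Clec2d, Csnk1a1, Tom1l2 and Fyco1, with 44.3 to 71.0 normalized tags, and were in 4 or 5 of the other lists. All 10 overlapped a female vehicle peak, so each was also present in a group without prednisone.

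Ranked by findPeaks score instead, the 10 highest gained peaks within 10 kb of a start lay on high input. The first 3 were at Sfi1 on chromosome 11, with scores of 423, 399 and 318, over 117 to 176 input tags per kb, where the median day 6 peak had 4, and 2.16 to 2.58-fold over input. A further 6 lay in 1 stretch of chromosome 1 near Ugt1a1, which conjugates bilirubin, Mroh2a, Trpm8, a cold-sensing channel, and Hjurp, a centromere chaperone, with scores of 69 to 88. Across this stretch the median input was 18.3 tags per kb under 18 day 6 peaks, 4.57 times the list median, and 63.3 under 21 vehicle peaks, 4.52 times that list's median, and 4 peaks of each list were kept. The last, near the chemokine gene Ccl28, had 25.6 input tags per kb and was 2.16-fold over input. None of these 10 peaks reached 4-fold over input.

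The 10 kept peaks of highest day 6 score included 2 more at Sfi1 and then peaks at the starts of 8 genes. Kif13a, a kinesin, had a score of 123, Ate1, an arginyltransferase, 106, Ndufs7, a complex I subunit, 104, and Trak1, an adaptor for mitochondrial transport, 102. Lzts2, the transcription factor gene Sp3 and Ubxn4 followed at 101, 99 and 99, and Tm9sf1 ranked between Ate1 and Ndufs7. These 8 were 2.45 to 5.76-fold over input, with 52.3 to 62.1% GC, and were in all 8 lists. By normalized tags at 4-fold or more, the largest kept day 6 peaks were at Zfp36, which encodes an mRNA decay factor (290.2), Mef2d, a muscle transcription factor (233.2), Setd1b (227.7), Pde4b (221.8) and Per1, a clock gene and glucocorticoid receptor target (214.8).

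The lost peaks of highest vehicle score included those at the starts of Mmadhc, Hat1, Vti1a, Wdr33, Mtg1, Invs, Slc46a3, Spata5 and Taf2, with scores of 30 to 37, 6.62 to 21.1-fold over input. Mmadhc acts in cobalamin metabolism, Hat1 is a histone acetyltransferase, Vti1a a SNARE, Mtg1 a mitochondrial GTPase, and Taf2 a subunit of the basal factor TFIID. Each was in 3 to 6 of the other 6 lists, with 53.1 to 64.4% GC. By normalized tags at 4-fold or more, the largest lost peaks were an intron peak of Bin1, which shapes T tubules (161.3), Gadd45b, a stress response gene (142.6), and a region nearest Nos1 (141.4), and all 3 were in all 6 other lists. Of the first 10 lost peaks by tags, Amotl1 and Zc3h3 were in 4 of the other lists and the rest in all 6.

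Assigned to the nearest protein-coding start within 50 kb, 10986 gained peaks reached 6355 of 20021 autosomal genes (31.7%), and 51200 lost peaks reached 14400 (71.9%). Mef2c, which encodes a MEF2 factor, had the most gained peaks, 17, beside 3 kept and 3 lost. Ablim1, an actin-binding protein, had 16 gained, 14 kept day 6 and 36 lost peaks, and Osbpl9, a lipid-binding protein, had 15 gained and 11 lost. Then came 6 genes with 13 gained peaks each, Cd36, Dlc1, Map4, Plcb4, Rbfox2 and Sptbn1. Of these, Cd36, the fatty acid translocase, had 1 kept and 0 lost peaks, whereas Rbfox2, a splicing regulator, had 20 lost. The genes with the most lost peaks were Septin9 (47), Dab2ip (40), Ablim1 (36), Dlgap4 (33) and Tspan9 (32), and Septin9 had 1 gained and no kept peak. Longer genes and genes with several starts can collect more peaks, which was not adjusted for.

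Promoters were then scored per gene, by whether a peak covered any part of the window at any start. Of 20021 genes, 10085 (50.4%) had a vehicle promoter peak and 5792 (28.9%) a day 6 promoter peak. Both lists covered 5382 genes (26.9%), 4703 (23.5%) were covered in vehicle only, 410 (2.05%) at day 6 only and 9526 (47.6%) in neither. Thus 46.6% of vehicle promoter genes had no promoter peak at day 6, here called lost promoters, and 4.13% of the 9936 genes without a vehicle promoter peak had one at day 6. Loss followed the tags of the vehicle promoter peak, from 13.2% of 2017 genes in the fifth with the most tags (62.0 to 746.7) to 81.5% in the fifth with the fewest (3.48 to 15.8). A day 6 peak lay within 1 kb of a start in 568 (12.1%) of the vehicle-only genes, and a vehicle peak lay within 1 kb of a start in 173 (42.2%) of the day 6-only genes, outside the window in each case. Of the 410 day 6-only genes, 86.3% had a promoter peak in female day 6, 36.3% in female vehicle and 33.4% in male day 8, and of the vehicle-only genes 90.8%, 20.8% and 35.5%. Tags given below for a gene are totals over a whole promoter peak. They were not scaled for peak width, which differed between the lists, so a lower total need not mean less signal per base.

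Contractile genes kept most of their promoter peaks. The fast fiber sarcomere list of 26 genes included some not confined to fast fibers, such as Ttn, Tcap, Actn2 and Mybpc1. Of the 26, 15 were covered in both lists, 4 in vehicle only, 3 at day 6 only and 4 in neither. Thus 4 of 19 vehicle promoters (21.1%) were lost, against 46.6% of all genes. Here and below, the share of all genes is not matched for vehicle tags, which loss followed. In the fifth with the most tags, 13.2% were lost. The day 6-only genes were Ttn, titin, with 44.1 normalized tags at day 6 and its nearest vehicle peak 5.12 kb from a start, and Tcap and Actn2, both Z-disc proteins, with 22.0 and 5.93 normalized tags and vehicle peaks 0.111 and 0.133 kb away. Tropomyosin genes were in both lists, Tpm1 with 136.0 normalized tags in vehicle and 71.0 at day 6, and Tpm2 with 184.7 and 39.0. The vehicle-only genes were Tnni2, Myom2, Actn3 and Mybpc2, with 88.2 to 216.3 normalized tags, and each of these vehicle peaks overlapped a day 6 peak outside the window. Day 6 peaks lay 0.445 kb from the start of Tnni2, fast troponin I, and 0.155 kb from that of Actn3. Of 10 slow fiber genes, 7 were in neither list, against 47.6% of all genes, and Myoz2 was in vehicle only.

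Calcium handling genes were covered in both lists in 13 of 18, with Cacna1s, the voltage sensor, and Cacna2d1 in vehicle only and Trdn at day 6 only. Cacna1s had 82.2 normalized tags in vehicle and its nearest day 6 peak 7.33 kb away. Jph2, which tethers the junctional membranes, had 163.5 over 6170 bp in vehicle and 51.2 over 2092 bp at day 6. Casq1, calsequestrin, had 118.6 over 4376 bp and 31.5 over 1392 bp. Among 15 myogenic transcription factor genes, 12 were in both lists and Myog, Eya1 and Tead4 were in vehicle only. Myog, myogenin, had 45.2 normalized tags in vehicle, 3.20-fold over input. The Mef2d promoter peak was among the largest of both lists, with 746.7 over 16686 bp in vehicle and 233.2 over 6978 bp at day 6. Gained peaks within 50 kb were nearest to 12 of these 15 genes (80%), against 31.7% of all genes and 42.9% of genes covered in both lists. Gene length and number of starts were not adjusted for, and Mef2c, with 4 starts, had 17 of the 39 gained peaks.

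Of 22 glucocorticoid receptor targets, 14 were covered in both lists, 4 in vehicle only (Klf15, Mt1, Mt2 and Rgs2), 0 at day 6 only and 4 in neither. Thus 4 of 18 vehicle promoters (22.2%) were lost, against 46.6% of all genes, and of the genes without a vehicle promoter peak 0 of 4 had one at day 6, against 4.13%. Nr3c1, the receptor itself, had 121.8 normalized tags over 3675 bp in vehicle and 33.2 over 934 bp at day 6. For Per1 the values were 359.0 over 9141 bp and 214.8 over 6886 bp. Glul, glutamine synthetase, had 74.3 and 54.4, and Sgk1, a kinase, 77.8 and 116.1. Klf15, a regulator of amino acid catabolism, had 100.9 in vehicle, 4.98-fold over input, with a day 6 peak 0.144 kb from its start, and that vehicle peak was kept, as was that of Mt1. Mt2, a metallothionein, had 72.7 in vehicle with the nearest day 6 peak 6.76 kb away, and Rgs2 27.8 with none within 103.6 kb. Fkbp5, a receptor chaperone, was in neither list by this window, with 6 lost and 1 gained peak nearest to it.

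In the atrophy program, 12 of 16 genes were in both lists, among them the ubiquitin ligase genes Trim63, with 30.4 normalized tags in vehicle and 13.8 at day 6, and Fbxo32, with 136.3 and 70.6. Gadd45a and Ulk1 were in vehicle only. Mstn, which encodes myostatin, was at day 6 only, with 23.7 normalized tags and a vehicle peak 0.180 kb from its start, which the day 6 peak overlapped. In insulin, IGF1 and PI3K signaling, all 20 genes had a vehicle promoter peak and 14 were in both lists. The 6 lost (30%, against 46.6% of all genes) were Igf1, Igf1r, Irs1, Mtor, Igfbp5 and Tsc2. Igf1r had 17.4 normalized tags in vehicle and no day 6 peak within 148.2 kb, whereas Irs1 had 148.3 and a day 6 peak 0.319 kb away. Insr, the insulin receptor, had 56.0 in vehicle and 32.4 at day 6.

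Lipid metabolism genes were lost in 11 of 27 (40.7%), near the 46.6% of all genes, with 16 in both lists and Cd36, Chpt1 and Ppargc1a at day 6 only. Ppargc1a, the coactivator of mitochondrial biogenesis, had 26.7 normalized tags at day 6, 13.4-fold over input, with a vehicle peak 0.421 kb away. Cd36 had 10.3 and Chpt1, of phosphatidylcholine synthesis, 6.33, with vehicle peaks 4.87 and 7.77 kb away. Pnpla2, the triglyceride lipase, had 82.9 in vehicle and 76.0 at day 6. Glucose and glycogen genes were in both lists in 16 of 19, and Phkg1 and Fbp2 were lost. Aldoa, aldolase, had 330.5 in vehicle and 140.7 at day 6. Clock genes were in both lists in 14 of 18, with Nr1d1 at 226.5 and 143.2, and Arntl was among those lost. Arntl, the core activator of the clock, had 59.5 in vehicle, and its nearest day 6 peak was 2.35 kb away.

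Among the dystrophin complex and neuromuscular junction, 7 of 14 vehicle promoters (50%) were lost, near the 46.6% of all genes. These were Sgcd, a sarcoglycan, and the junction genes Chrna1, Chrng, Dok7, Rapsn, Lrp4 and Ache. Rapsn, which clusters acetylcholine receptors, had 70.2 normalized tags in vehicle and no day 6 peak within 18.2 kb. Of 81 oxidative phosphorylation genes, 62 were in both lists, 15 were lost (19.5% of 77) and Cox7a1 was at day 6 only, with 21.2 normalized tags. Ribosomal protein genes were lost in 23 of 68 (33.8%) and proteasome genes in 10 of 36 (27.8%), against 46.6% of all genes, with 0 at day 6 only. Lost shares of vehicle promoters were 13.3% for calcium handling, 20% for myogenic transcription factors and 14.3% for the atrophy program. They were 11.1% for glucose and glycogen and 12.5% for clock genes, against 46.6% of all genes. No test compared any of these lists with other genes.

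**Figure D5:**
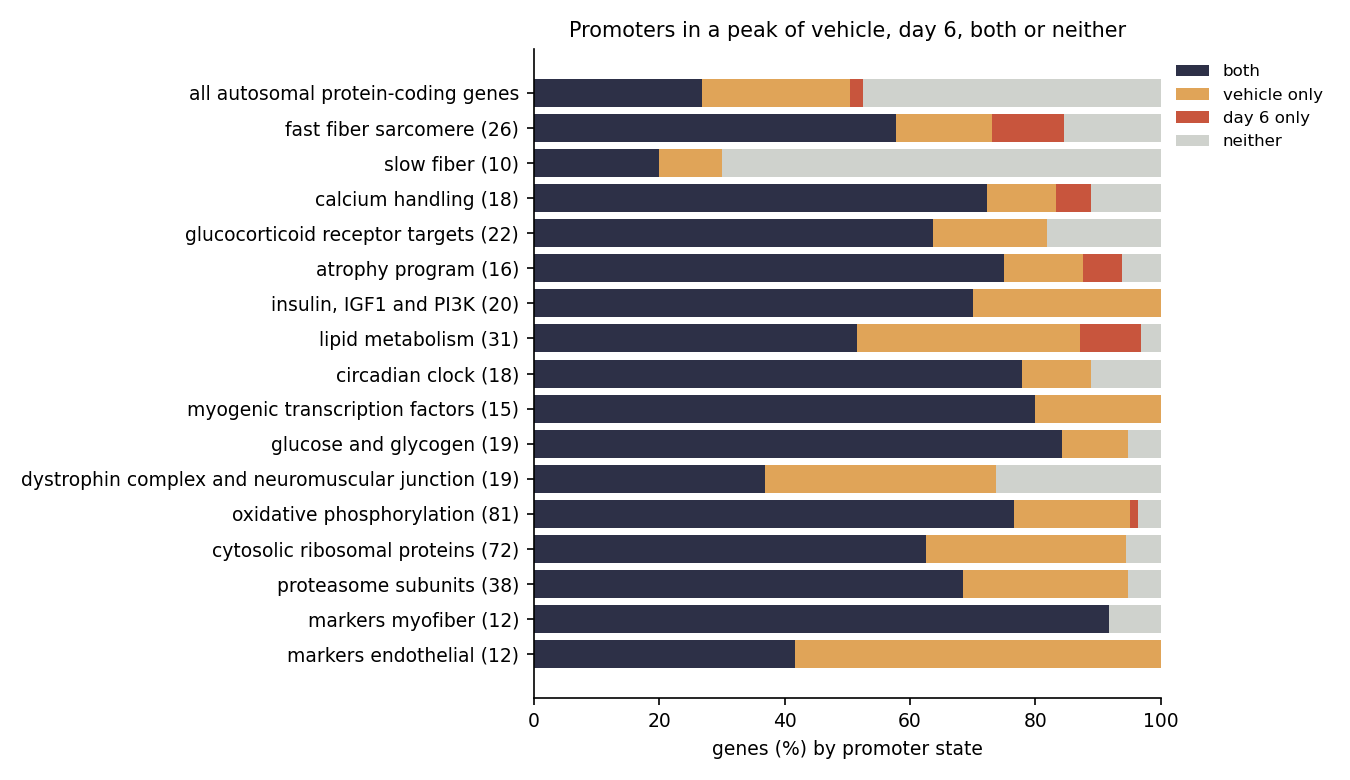
Percentage of genes whose promoter lay in a peak of both lists, vehicle only, day 6 only or neither, for each gene list (number of members in parentheses) and for all 20021 autosomal protein-coding genes. Vehicle-only genes are 23.5% of all genes, and day 6-only genes 2.05%.

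Markers of the tissue and of other cells were read in the same way. Of 12 myofiber markers, 11 were in both lists and Myh1 in neither, with Ckm at 175.5 normalized tags in vehicle and 85.3 at day 6. All 12 endothelial markers were in vehicle and 5 at day 6, with Cdh5, Kdr, Tie1, Flt1, Emcn, Cldn5 and Vwf lost (58.3%, against 46.6% of all genes). The 7 lost had 13.3 to 40.5 normalized tags in vehicle, and those of Cdh5 and Emcn overlapped a day 6 peak outside the window. Of the 12 genes, 10 (83.3%) were nearest to a gained peak within 50 kb, against 31.7% of all genes. This share was 42.9% of genes covered in both lists and 31.4% of vehicle-only genes, with gene length not adjusted for. Of 8 mural cell markers, 3 were in vehicle (Myh11, Tagln and Pdgfrb) and none at day 6. Of 12 immune markers, 3 were in vehicle (Cd68, C1qb and Cd3e) and Lyz2 at day 6 only, and Ptprc was in neither. Of 11 fibroadipogenic markers, Col1a1 was in vehicle only and Dcn at day 6 only, and Pdgfra was in neither. Of 7 adipocyte markers Pparg was at day 6 only and 6 were in neither list, and of 6 erythroid markers Klf1 was at day 6 only and 5 were in neither. Of 5 tendon markers Scx was in vehicle only, and of 6 Schwann cell markers 2 were in both lists and S100b in vehicle only. Dcn, Lyz2 and Klf1 each rested on a 500 bp day 6 peak of 5.54 to 5.74 normalized tags. Of 8 satellite cell markers, Cd34 and Sdc4 were in both lists, Calcr was in vehicle only, and 5, Pax7 among them, were in neither. In these bulk samples fewer cells of a type and less acetylation per cell cannot be told apart, and the part of cell makeup in the results was not tested.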

How the data were processed

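Peak lists from ChIP-Seq of H3K27ac in isolated quadriceps myofibers were used, 1 list per group. The authors mapped trimmed reads to mm10 with Bowtie2 (2.2.6 per the submitters' processing notes, which also name TopHat2 2.1.0) and called histone-style regions with HOMER findPeaks against input, with a minimum of 2-fold. The handling of the 2 replicate libraries before peak calling is not given in the sources used here. The deposited files give signal as a normalized tag count per 10 M tags, a findPeaks score, and, for both lists compared, tags in input and the ratio or fold over input.

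Positions were classed with 45756 curated RefSeq transcripts (GRCm38.p6, the build of the files), by peak center. Overlap of 1 bp was computed in Python 3.11.15 with numpy 2.4.6 and pandas 2.3.3, and was tested on simulated lists and against bedtools 2.31.1. No test between groups was made, and Wilson 95% intervals cover counting error only. For equal numbers, ties in score were broken by normalized tag count and position. Depth was read from the steps of low normalized values, all whole within 0.05 tags.

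Genes named are those nearest the 10 peaks of highest score in each group, within 10 kb of a start and at most 50% repeat-masked, those with the most gained or lost peaks, and members of gene lists. Members, lists and rules were chosen with earlier results of these data known. Peaks chosen by normalized tags at 4-fold or more, the sequences, the motifs, the region on chromosome 1, width and GC ranges, and the alternative restricted by GC were added after seeing the data. A gene that these rules name is not reported here.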

Additional observations from a re-analysis of the deposited data

Results flagged for a closer look

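Males and females differed in whether day 6 or vehicle had more autosomal peaks. The ratio of day 6 to vehicle peaks was 0.367 in males (31982 over 87199) and 3.23 in females (121551 over 37614), and this opposite direction is why it is listed. The difference was not tested, since each group has 1 list. In females 108752 day 6 peaks (89.5%) were gained and 22393 vehicle peaks (59.5%) were lost.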

How the results depend on the processing

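As no list has values per library, leaving out a library could not be done, and none of the values carries a test. No paired analysis was possible because each group has 1 peak list. The intervals cover counting error only, and depth, background and base composition differed between the lists.

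The 6 values in order were the share of day 6 peaks gained, of vehicle peaks lost, of promoters in gained, kept day 6 and lost peaks, and of vehicle promoter genes lost, at 63.8%, 86.9%, 2.29%, 27.3%, 3.88% and 46.6% as reported. Asking for 50% of a peak to be covered gave 73.8%, 92.2%, 4.12%, 31.6%, 4.83% and 61%. Equal numbers by score gave 75.6%, 76.4%, 4.89%, 31.3%, 6.24% and 40.3%. Equal numbers by fold over input gave 81.1%, 81.5%, 6.47%, 32.2%, 3.49% and 30.9%. Peaks of at least 4-fold gave 80.7%, 90.4%, 2.97%, 22.5%, 6.45% and 73.4%. A gap of 1 kb gave 53.8%, 82.2%, 1.39%, 22.9%, 3.77% and 39.9%. Peaks of 45 to 50% GC against the whole other list, an alternative chosen after seeing the data, gave 55%, 90.5%, 3.23%, 15.8%, 1.28% and 54.2%. Leaving out repeats moved lost peaks to 86.1% and their promoter share to 4.21%. With promoters of 2.5 kb to each side, promoters took 7.86%, 53.4% and 12.6% of gained, kept day 6 and lost peaks. The other 12 of 52 values, X and Y included among them, stayed within the interval of the main value, and the cause of the 40 moves was not tested. In each of these settings kept peaks held a larger share of promoters than gained or lost ones.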

Other observations

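By chromosome, the share of day 6 peaks gained ran from 53.4% on chromosome 11 to 70.9% on chromosome 18, and the share of vehicle peaks lost from 84.0% on chromosome 19 to 89.0% on chromosome 5. The number of day 6 peaks per vehicle peak ran from 0.288 on chromosome 5 to 0.508 on chromosome 3. The X chromosome, left out of the comparison, held 380 vehicle and 186 day 6 peaks.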
